A study of Mus musculus with 12 samples.

Results

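Chromatin accessibility in stromal cells of lymph nodes from specific pathogen-free (SPF) mice was compared between gut-draining mesenteric lymph nodes (mLN-SPF, 3 libraries) and skin-draining peripheral lymph nodes (pLN-SPF, 3 libraries). The comparison took in every distinct peak of the deposited ATAC-seq table, 42424 of 42424, and 6 of the 12 samples of the series. A peak is a stretch of the genome that the transposase Tn5 cut often enough to be called open. Each peak took the name of the protein-coding gene whose transcription start site was nearest on GRCm38, 14679 genes in all, and the name does not show that the peak acts on that gene.

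The cells were CD45- CD24- CD31- Pdpn+ non-endothelial stromal cells sorted from BALB/c mice, with SPF mice of 7 to 12 weeks and germ-free (GF) mice of 6 to 10 weeks of age. For SPF housing, a CD90.1 strain on BALB/c is named in the methods of the study. Libraries are written with their replicate number, as in mLN-SPF 2. Mesenteric nodes drained the small intestine and the colon and cecum, and peripheral nodes were inguinal and axillary, with popliteal nodes also named in the labels. The tissue label of the pLN samples reads as both skin-draining and mesenteric, so their group was taken from the sample titles. The study states in general that replicates for bulk sequencing came from independent experiments, but the labels do not say which libraries did or whether they came from separate animals. The p-values below rest on the spread between libraries within each group, pooled over the SPF and GF groups, part of which may be technical.

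Stromal cells of the node build the reticular network on which lymphocytes move, and they secrete the chemokines and survival factors that hold B and T cells in their zones. Promoters are open in most cell types, while distal elements (enhancers) open in a cell-type- and position-dependent manner, and in mesenchyme they often lie far from the developmental genes they serve. Mesenchyme keeps part of the transcription factor code of the body region in which it formed, such as T-box and engrailed genes in limb and body wall and Nkx2-3 around the gut.

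The 6 libraries held 2886129 to 10380493 reads in peaks, and the median peak had 37 to 136 reads. The shallowest library of each node was replicate 3. The first principal component of the 6 libraries (54.9% of the variance) separated the nodes, at -109, -76.5 and -28.1 for mLN-SPF and 50.2 to 89.5 for pLN-SPF. The library mLN-SPF 2 stood apart at -28.1. Over the peaks called between the nodes without it, its value lay at a median of 0.603 of the way from the mean of pLN-SPF to that of its own node, against 1.08 and 0.892 for the other mLN-SPF libraries. The library pLN-SPF 3 was the next nearest to the other node, at 0.709. Counts are therefore also given without single libraries, mLN-SPF 2 included, where these moved them by over 1.5 times or turned the balance of a gene list. The promoter peaks of Pdgfra and Pdgfrb, receptor genes that mark mesenchymal cells, had 42.0 to 54.5 and 44.6 to 58.4 RPKM (reads per kilobase, adjusted for library size) in all 6 libraries, and none of 10 epithelial marker genes had a promoter peak.

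The promoters shown first belong to transcription factor genes whose accessibility differed between the nodes. They come from the GRCm38 reference, which is C57BL/6J and not the BALB/c of these mice, so strain differences are not shown. Nkx2-3 is a homeobox gene of gut and spleen mesenchyme, En1 (engrailed) marks ventral limb ectoderm and a fibroblast lineage of dorsal skin, and Tbx15 is a T-box factor of mesenchyme in limb and skin. The Nkx2-3 window is chr19:43612162-43612461, the En1 window chr1:120602118-120602417 and the Tbx15 window chr3:99253382-99253681, all on the plus strand. Capitals mark the CCAAT box (CCAAT) on either strand, where overlapping matches run together, and the TATA box (TATAAA) was searched in the same way. Of 32851 RefSeq promoters of 300 bases on GRCm38.p6, 37.4% held a CCAAT box and 13.6% a TATA box.
Nkx2-3: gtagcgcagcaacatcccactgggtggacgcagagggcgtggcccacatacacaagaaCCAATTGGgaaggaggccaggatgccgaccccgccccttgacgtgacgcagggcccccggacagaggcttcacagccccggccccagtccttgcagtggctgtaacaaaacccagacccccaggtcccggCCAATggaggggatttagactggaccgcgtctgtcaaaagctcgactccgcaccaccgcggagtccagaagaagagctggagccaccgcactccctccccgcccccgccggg
En1: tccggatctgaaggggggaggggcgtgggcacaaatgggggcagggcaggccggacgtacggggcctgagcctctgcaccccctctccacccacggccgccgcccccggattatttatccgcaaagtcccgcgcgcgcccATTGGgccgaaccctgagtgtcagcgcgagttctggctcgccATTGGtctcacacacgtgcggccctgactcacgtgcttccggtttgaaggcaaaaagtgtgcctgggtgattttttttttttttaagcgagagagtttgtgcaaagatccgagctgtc
Tbx15: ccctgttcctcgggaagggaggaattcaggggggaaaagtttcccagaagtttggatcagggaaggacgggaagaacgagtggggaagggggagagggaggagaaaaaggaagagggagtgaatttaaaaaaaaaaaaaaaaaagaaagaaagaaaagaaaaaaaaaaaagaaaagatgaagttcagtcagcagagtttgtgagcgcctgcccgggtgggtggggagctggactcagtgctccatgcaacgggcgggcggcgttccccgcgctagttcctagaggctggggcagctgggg
The Nkx2-3 window held 3 CCAAT matches, the En1 window 2 and the Tbx15 window none, and no TATA box was found in these windows.

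Most of the differences lay away from promoters, and distal peaks are shown here for 5 of the motifs whose frequency is compared below. The peaks were picked for display and each held a match, so they do not show how common a motif is. The peaks of Usp37 (a deubiquitinase gene, chr1:74485889-74486031, in a coding exon), Ccn1 (a matricellular protein gene, chr3:145676390-145676540), Klf4 (a zinc finger factor gene 169 kb away, chr4:55701418-55701668) and Notch2 (a receptor gene, chr3:97994060-97994263) were more open in mLN-SPF. Capitals mark the AP-1 site bound by FOS and JUN factors (TGACTCA, or TGAGTCA on the other strand) and the nuclear receptor site (AGGTCA, or TGACCT). The plus strand is shown, and except in Usp37 the peaks were intergenic.
Usp37: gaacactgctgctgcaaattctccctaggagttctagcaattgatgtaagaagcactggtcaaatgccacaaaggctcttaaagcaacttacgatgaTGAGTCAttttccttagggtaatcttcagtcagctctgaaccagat
Ccn1: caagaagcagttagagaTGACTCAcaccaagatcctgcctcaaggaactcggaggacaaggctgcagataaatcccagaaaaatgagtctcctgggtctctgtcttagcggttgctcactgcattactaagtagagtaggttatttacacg
Klf4: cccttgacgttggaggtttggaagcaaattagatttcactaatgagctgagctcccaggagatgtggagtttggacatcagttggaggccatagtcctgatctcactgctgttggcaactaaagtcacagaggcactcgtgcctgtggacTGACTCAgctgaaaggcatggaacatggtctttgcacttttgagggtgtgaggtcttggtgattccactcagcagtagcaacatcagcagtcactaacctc
Notch2: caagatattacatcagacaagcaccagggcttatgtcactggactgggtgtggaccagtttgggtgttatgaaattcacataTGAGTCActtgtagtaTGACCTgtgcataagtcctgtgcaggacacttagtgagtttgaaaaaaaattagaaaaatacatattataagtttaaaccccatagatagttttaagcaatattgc
The next windows belong to peaks that were more open in pLN-SPF. They lay near Ust, a sulfotransferase gene of chondroitin and dermatan chains (chr10:8618715-8619014, intergenic), near Tbx18, a T-box gene (chr9:87732883-87733182, intergenic), in an intron of the kinesin gene Kif21a (chr15:90940648-90940947) and 605 kb from the nuclear receptor gene Nr5a2 (chr1:137565852-137566050, intergenic). Capitals mark the NF-kB site (GGGANNNCC), the homeodomain core (TAATTA) and the HOX-PBX site (TGATTNAT) on either strand of these plus-strand sequences.
Ust: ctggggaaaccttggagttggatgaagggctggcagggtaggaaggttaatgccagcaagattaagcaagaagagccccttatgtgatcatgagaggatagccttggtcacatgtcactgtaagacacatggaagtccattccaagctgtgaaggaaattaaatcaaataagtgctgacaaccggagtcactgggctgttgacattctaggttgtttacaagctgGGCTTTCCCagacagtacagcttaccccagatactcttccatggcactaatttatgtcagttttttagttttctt
Tbx18: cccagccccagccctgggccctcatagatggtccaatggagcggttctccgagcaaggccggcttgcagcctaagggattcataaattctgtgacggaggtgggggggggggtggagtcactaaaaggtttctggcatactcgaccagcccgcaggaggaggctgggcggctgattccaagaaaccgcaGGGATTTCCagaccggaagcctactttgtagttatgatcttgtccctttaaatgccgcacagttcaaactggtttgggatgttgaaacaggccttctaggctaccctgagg
Kif21a: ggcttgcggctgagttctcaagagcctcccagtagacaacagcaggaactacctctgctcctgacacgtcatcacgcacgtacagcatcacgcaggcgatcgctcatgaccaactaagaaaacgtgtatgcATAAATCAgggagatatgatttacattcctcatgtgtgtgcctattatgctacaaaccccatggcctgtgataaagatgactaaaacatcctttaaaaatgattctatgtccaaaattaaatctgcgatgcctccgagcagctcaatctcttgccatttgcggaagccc
Nr5a2: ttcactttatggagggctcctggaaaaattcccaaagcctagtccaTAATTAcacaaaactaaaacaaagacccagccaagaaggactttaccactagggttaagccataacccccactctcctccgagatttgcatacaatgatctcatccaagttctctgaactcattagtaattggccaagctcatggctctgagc
Ust and Tbx18 each held 1 NF-kB match, Kif21a 1 HOX-PBX match and Nr5a2 1 homeodomain core. A match is a run of letters and no evidence that a factor was bound. Each set of motifs was searched only in the windows of its own direction, so other windows may hold unmarked matches.

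A differentially accessible region (DAR) was a peak that passed a limma adjusted p of 0.05 and differed 2-fold or more. Of the 42424 peaks, 4567 (10.8%) were DARs, of which 2754 (6.49% of all peaks) were more open in mLN-SPF and 1813 (4.27%) in pLN-SPF. In 97.7% of the DARs the libraries of the nodes did not overlap, against 33.1% of all peaks. The DARs lay nearest 3025 genes (20.6% of genes with a peak), with 1978 (13.5%) having one more open in mLN-SPF, 1369 (9.33%) one more open in pLN-SPF, and 322 both. Changes of at least 4-fold numbered 431 toward mLN and 148 toward pLN, and of at least 8-fold 32 and 7. The median log2 fold change of the DARs (mLN over pLN throughout) was 1.5 and -1.31.

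Without mLN-SPF 2 the count was 5939, with 3049 and 2890 toward mLN and pLN. It fell to 2544 (1556 and 988) without mLN-SPF 3, to 2672 (1804 and 868) without pLN-SPF 1 and to 2290 (1567 and 723) without pLN-SPF 2, and the DARs toward pLN also fell to 1155 without mLN-SPF 1. Of 305 named peaks that were DARs, 205 were DARs without each library in turn, and a named peak below is one of these unless a library is given.

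Promoters seldom differed. Of 12760 promoter peaks (within 1 kb of a start site), 186 (1.46%) were DARs, 124 toward mLN and 62 toward pLN, while 15% of intergenic, 14.5% of intronic and 13% of coding exon peaks were. The promoter count toward mLN was 76, 65, 71 and 69 without mLN-SPF 1, mLN-SPF 3, pLN-SPF 1 and pLN-SPF 2, and toward pLN it was 109, 30 and 25 without mLN-SPF 2, pLN-SPF 1 and pLN-SPF 2. The share of DARs grew with distance, from 0.96% of peaks that held a start site to 20.8% of peaks more than 250 kb from one. Toward pLN it went from 0.332% to 10.2% and toward mLN from 0.628% to 10.6%. Among peaks outside promoters, DARs toward mLN were narrower than those toward pLN, with a median width of 321 and 478 bp against 434 bp for peaks that were no DAR. Of 2092 genes with a distal DAR and a promoter peak, 70 (3.35%) also had a promoter DAR. The share over all genes with a promoter peak is not given here, so 3.35% has no background to be read against. Seen from the promoters, 70 of 181 genes with a promoter DAR had a distal DAR, in the same direction only for 59, in the opposite only for 6 and in both for 5. Whether this agreement exceeds that of unrelated DARs was not tested.

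**Figure D1:**
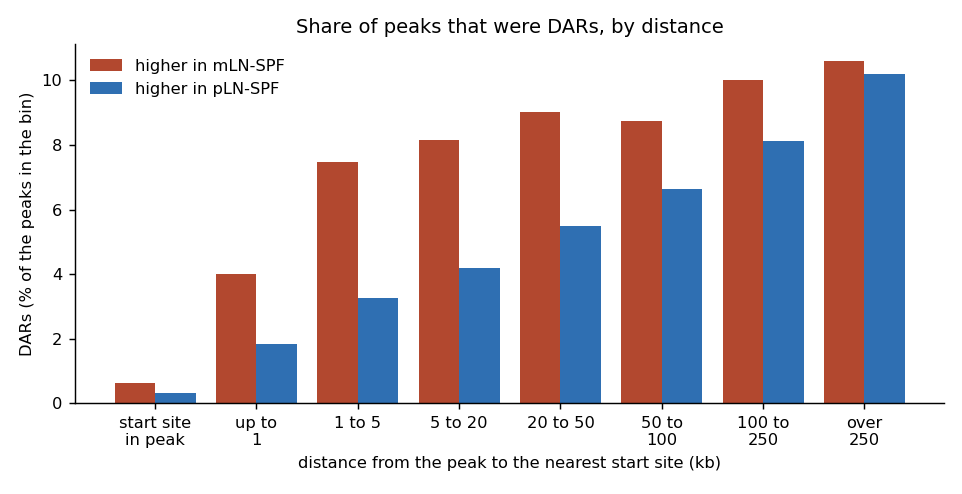
Share of peaks (%) that were DARs in each class of distance to the nearest protein-coding start site (kb), red for DARs more open in mLN-SPF and blue for pLN-SPF. In the peaks that held a start site the shares were 0.628% and 0.332%, and beyond 250 kb they were 10.6% and 10.2%.

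The promoter with the largest difference was that of Nkx2-3. It had 79.5, 65.2 and 76.2 RPKM in mLN-SPF 1, 2 and 3 and 2.98, 1.66 and 6.81 in pLN-SPF. All mLN libraries, replicate 2 included, were high, and the highest pLN value was far below the lowest mLN value. The log2 fold change was 4.09 (SE 0.34, limma adjusted p = 0.000373). In bulk cells, fewer cells of a type and less accessibility per cell cannot be told apart, here and below. Tcf21, a bHLH factor of visceral mesenchyme, had 47.4, 46.7 and 59.3 RPKM against 3.96, 2.48 and 11 (3.13, SE 0.39). Glrb, a glycine receptor subunit gene, had 17.7, 24.3 and 20.4 against 2.37, 3.51 and 0 (3.13, SE 0.56), on 11, 16 and 7 reads against 3, 4 and 0. Sema3e, a semaphorin gene that repels growing axons and vessels, had 31.5, 17.9 and 35 against 2.70, 6.02 and 3.97 (2.47, SE 0.38). For Sema3e the lowest mLN library was replicate 2, and for Glrb it was the highest.

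Several homeobox and T-box promoters were more open in pLN-SPF. The En1 promoter had 8, 11 and 5.27 RPKM against 48.9, 45.7 and 36 (-2.33, SE 0.46, limma adjusted p = 0.00661). At En1 mLN-SPF 2 was the highest of its node and pLN-SPF 3 the lowest of the other. The largest promoter DARs were named only where the libraries of the nodes did not overlap. Tbx15 had 11.8, 10.5 and 11.4 against 62, 63.1 and 48.8 RPKM (-2.26, SE 0.21), and the homeobox gene Emx2 13.5, 11.3 and 11.3 against 52.3, 58.3 and 44.3 (-2.01, SE 0.28). Shox2, a homeobox gene of the limb skeleton, had 15.5, 15.6 and 12.2 against 41.2, 39 and 40.3 (-1.42, SE 0.22). In mLN-SPF these 3 promoters ran from 10.5 to 15.6 RPKM, above every pLN-SPF value of Nkx2-3. The promoter calls at Reg3g (-2.12), Galnt9 (-1.79), Fgl1 (-1.73) and Col4a1 (-1.68) were each lost without at least 4 of the 6 libraries in turn, and that at Atp11a (2.59) without mLN-SPF 1 or 3.

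**Figure D2:**
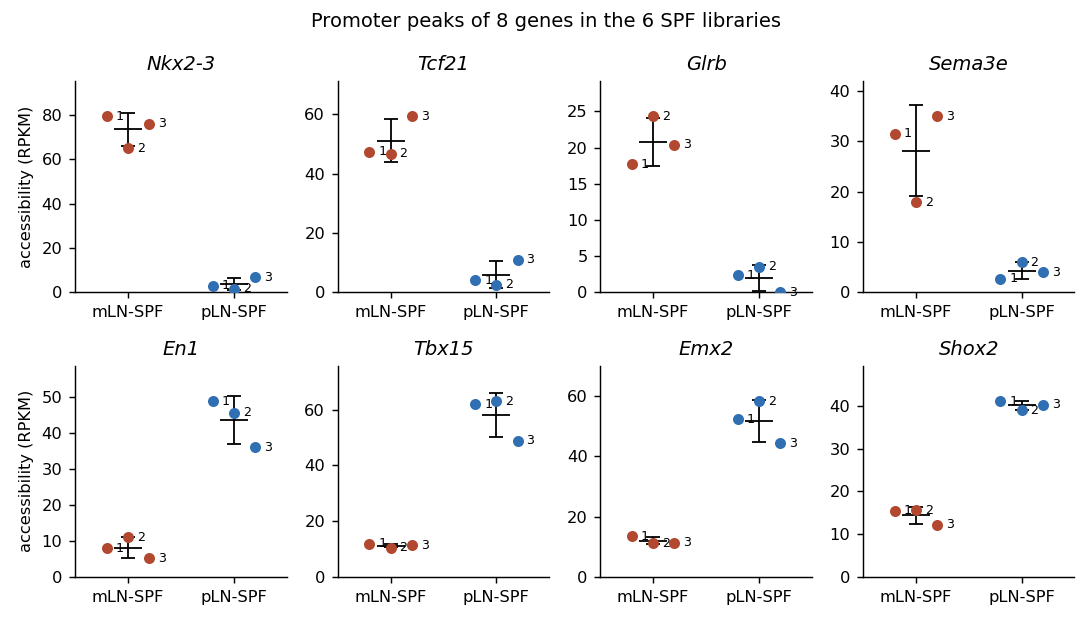
Accessibility (RPKM) of 8 promoter peaks in the 6 SPF libraries, with points labelled by replicate number and bars for the mean and SD (n = 3). Nkx2-3, Tcf21, Glrb and Sema3e were high in mLN-SPF and En1, Tbx15, Emx2 and Shox2 in pLN-SPF. In each panel the libraries of the nodes did not overlap, a condition under which the largest promoter DARs were named.

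At some genes the difference ran through the whole locus. All 8 peaks nearest Tbx15, spread over 68.0 kb, were DARs toward pLN-SPF, with log2 fold changes from -1.70 to -2.86. An intronic peak 9.43 kb from the nearest start site had 2.33, 8.80 and 6.55 RPKM in mLN-SPF and 40.9, 45.3 and 38.6 in pLN-SPF (-2.76, SE 0.44). At a second Tbx15 promoter the values were 7.69, 5.43 and 6.24 against 20.5, 22.8 and 28 (-1.73, SE 0.35). Each of the 8 peaks was also lower in mLN-GF than in pLN-GF, as were 99.3% of all DARs toward pLN. Tbx18, a T-box gene of mesenchymal and smooth muscle progenitors, had 5 DARs among 12 peaks, all toward pLN. Its promoter had 21.1, 22.3 and 19.3 against 44.8, 49.5 and 42.5 RPKM (-1.09, SE 0.18), and the peak 1.61 kb upstream shown above had 13.6, 8.37 and 1.07 against 45.4, 42.5 and 46.6 (-2.80, SE 0.56). The upstream peak varied more between the mLN libraries than the promoter did. The farther Tbx18 DARs, at -119, -164 and -232 kb from the start site, were each lost without mLN-SPF 1 or pLN-SPF 2, among others. Cxcl13, a chemokine by which B cells find follicles, had 5 DARs toward pLN among 15 peaks, of which 14 had a negative log2 fold change. Its promoter was weak, with 7.53, 7.52 and 5.30 against 18.9, 17.4 and 16.9 RPKM (-1.28, SE 0.32), and it was not called once mLN-SPF 3, pLN-SPF 1 or pLN-SPF 2 was left out.

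Toward mLN-SPF, Wt1, a zinc finger factor of mesothelium and visceral mesenchyme, had 7 DARs among 9 peaks. Its promoter had 53.1, 48.1 and 58.3 RPKM against 15.8, 9.76 and 18.1 (log2 fold change 1.84, SE 0.23), and an intronic peak 3.53 kb from the nearest start site had 51.1, 38.2 and 50.3 against 3.96, 5.87 and 12.1 (2.63, SE 0.33). All libraries of mLN-SPF were above those of pLN-SPF at both. Slit2, an axon and cell guidance ligand, had 6 DARs among 7 peaks. The largest lay -643 kb from the start site, with 14.7, 41.2 and 36.9 RPKM against 1.38, 1.53 and 3.54 (3.28, SE 0.42). Its promoter was near the 2-fold threshold at 52.7, 59.5 and 62.6 against 27.4, 29 and 28.4 (1.02, SE 0.17), and was no longer called without mLN-SPF 2 (1.00) or 3 (0.96) or pLN-SPF 1 (0.99). Htr2a, a serotonin receptor gene, had 5 DARs among 8 peaks, all 8 with a positive log2 fold change, of which 4 DARs lay -331 to -228 kb from the start site. The largest of them had 23.8, 25.6 and 34.4 against 4.36, 1.98 and 10.8 RPKM (2.31, SE 0.44). Dst, which encodes a cytoskeletal linker, had 10 DARs among 23 peaks and Ryr2, a calcium release channel gene, 7 among 9, with log2 fold changes of 1.02 to 2.68 and 1.01 to 2.31. Every DAR of these loci had the same sign in GF mice, as did 98.7% of all DARs toward mLN.

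**Figure D3:**
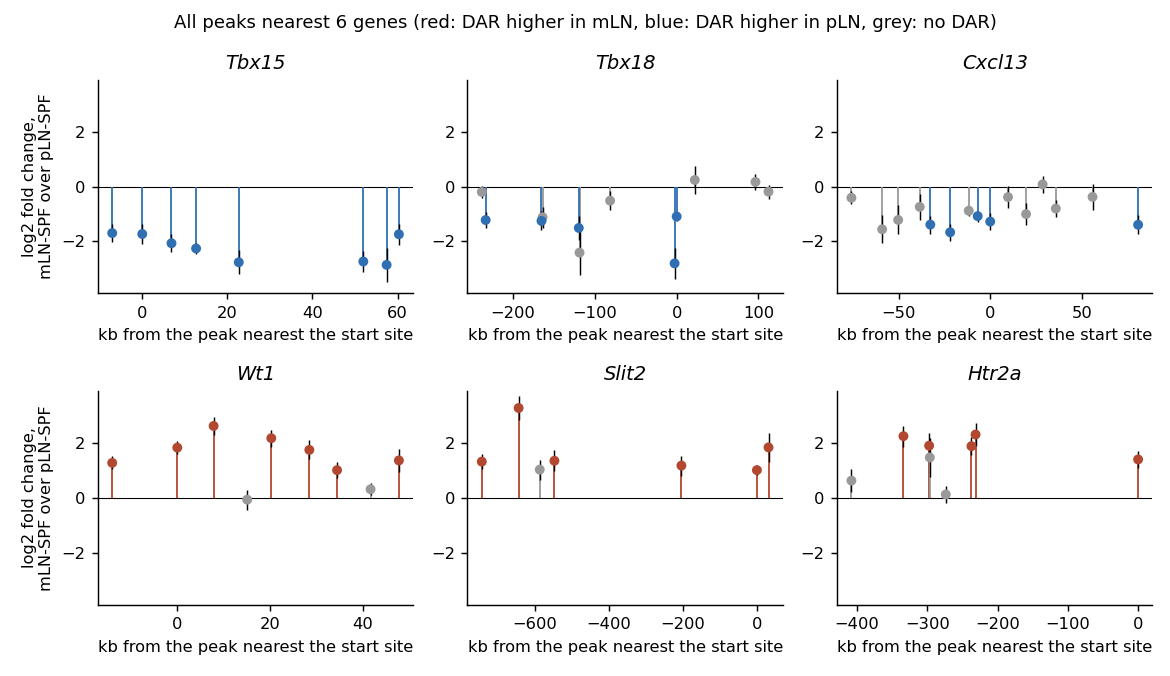
Log2 fold change (mLN-SPF over pLN-SPF, points, with SE as black lines) of every peak nearest 6 genes, against its distance (kb, in the direction of transcription) from the peak nearest the start site. All 8 Tbx15 peaks were DARs toward pLN (blue), while DARs toward mLN (red) took 7 of 9 peaks at Wt1, 6 of 7 at Slit2 and 5 of 8 at Htr2a, and grey peaks were no DAR.

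Other loci were mixed or lay far from any start site. Cdh5, the endothelial cadherin gene, had 6 DARs toward pLN among 12 peaks, all of them -566 to -78.0 kb from its start site and none within 50 kb. Of these 6, 1 was called without each library in turn. Myc, a growth-promoting bHLH factor, had 6 DARs toward pLN and 1 toward mLN among 33 peaks. Between neighbouring DARs of one gene, 542 pairs had the same direction and 105 pairs, at 98 genes, the opposite, with a median gap of 33388 bp in the opposite pairs. These counts were not tested against those expected from 2754 DARs toward mLN and 1813 toward pLN. In Map2k6, a stress kinase gene, an intronic peak had 40.0, 26.9 and 41.9 RPKM against 4.13, 4.02 and 3.53 (2.90, SE 0.31), and another 13.1 kb away 1.59, 5.28 and 0 against 6.65, 11.3 and 10.7 (-2.03, SE 0.59). The second Map2k6 call was lost without mLN-SPF 1 or 3 or any pLN-SPF library. At 787 and 815 kb from Galc, which encodes a galactolipid-cleaving enzyme, both peaks of a pair kept their calls without each library, at -2.33 (SE 0.36) and 2.15 (SE 0.43).

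Among distal peaks, several of the largest changes rested on few reads. The Usp37 peak had 27.2, 16.7 and 19.7 RPKM in mLN-SPF and 1.33, 0 and 0 in pLN-SPF, which is 41 reads against 2, a ratio scaled for depth of 35.1 (95% exact counting interval 9.11 to 299). The Kif21a peak had 0, 1.68 and 0 RPKM against 11.6, 8.39 and 13.9, or 3 reads against 80 (ratio, pLN over mLN, 15.6, counting interval 5.14 to 77.1). These intervals cover counting error only. Better covered was the Ust peak, with 6.22, 10.1 and 6.44 RPKM against 65.8, 77.1 and 61.2 on 14, 24 and 8 reads against 302, 318 and 82 (log2 fold change -3.03, SE 0.27). A peak -67.9 kb from Bmp2, which encodes a bone morphogenetic protein, had 37.6, 48.2 and 46.2 against 6.58, 0.733 and 2.25 (3.68, SE 0.68). One 6.13 kb from Hlx, a homeodomain factor needed for gut and liver growth, had 45.4, 43 and 29.4 against 5.30, 0.590 and 3.63 (3.46, SE 0.55). In each of these peaks every library of one node lay above every library of the other. The largest DARs were named only where this held, so it adds no support. Other peaks of some of these genes went the other way. Bmp2 had 1 DAR toward mLN and 2 toward pLN among 11 peaks, Hlx 1 and 1 among 8 and Ust 1 and 1 among 18.

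Gene families differed in how many of their peaks were DARs. Of all peaks, 6.49% were DARs toward mLN and 4.27% toward pLN, and the median log2 fold change of all peaks was 0.00435. These shares include promoter peaks, of which 1.46% were DARs, against 15% of intergenic peaks. They are not matched for distance, and whether a family differed from other peaks at like distances was not tested. T-box genes had 2 DARs toward mLN and 13 toward pLN among 42 peaks (35.7% in all), and all 13 belonged to Tbx15 and Tbx18. The 2 others lay near Tbx3 (1.13, SE 0.23) and Tbx19 (1.10, SE 0.23), the first not called without pLN-SPF 2 and the second not without mLN-SPF 3. Without a library the count toward pLN was 10 to 15 and toward mLN 1 to 3, lowest without mLN-SPF 3 or pLN-SPF 2. Homeobox genes outside the Hox clusters had 27 and 18 among 350 peaks, with Nkx2-3, Isl1 and Pax1 toward mLN only and En1 in both directions, 3 toward pLN and 1 toward mLN. The homeobox count toward mLN fell to 12 without mLN-SPF 3 and 15 without pLN-SPF 2, and that toward pLN went to 29 without mLN-SPF 2 and 10 without pLN-SPF 1 or 2. Of 36 peaks near Hox cluster genes, 1 was a DAR, at Hoxd3 toward pLN (2 without mLN-SPF 2).

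GATA genes and their cofactors had 10 DARs toward mLN and none toward pLN among 61 peaks. They were nearest Gata3, Gata6, Trps1 and Zfpm2, but none of the 10 lay within 50 kb of a start site. A peak 966 kb from Gata3, a factor of lymphoid and many other tissues, had 32.9, 48 and 76.6 RPKM against 12.4, 10.3 and 14.2 (1.94, SE 0.34). Toward mLN the GATA count was 6 without mLN-SPF 3 or pLN-SPF 2, and toward pLN it was 2 without mLN-SPF 2 and 1 without pLN-SPF 3. AP-1 and CREB/ATF genes had 19 toward mLN and 4 toward pLN among 167 peaks, with a median log2 fold change of 0.115. Near Fosb, an AP-1 subunit, a peak with a log2 fold change of 1.5 had 51.3, 36.8 and 51.3 against 16.5, 15.5 and 14.9 (SE 0.26), and near Nfe2l2, a factor of the oxidative stress response, 35.7, 22.9 and 61 against 6.22, 9.95 and 7.32 (2.12, SE 0.35). Here mLN-SPF 2 was the lowest of its node, and the nodes did not overlap. Toward mLN this count was 9, 10, 9 and 5 without mLN-SPF 1, mLN-SPF 3, pLN-SPF 1 and pLN-SPF 2, and toward pLN it was 10 without mLN-SPF 2 and 0 without mLN-SPF 3 or pLN-SPF 1 or 2. SOX genes had 9 and 5 among 72 peaks (toward mLN 4, 5 and 5 without mLN-SPF 1, mLN-SPF 3 and pLN-SPF 2, and toward pLN 2 and 3 without pLN-SPF 1 and 2). The Sox11 promoter had 35.9, 30.9 and 37.4 against 11.3, 10.8 and 9.51 RPKM (1.63, SE 0.28).

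Guidance, adhesion and neurotrophic genes held many DARs in both directions. Axon guidance genes had 48 toward mLN and 21 toward pLN among 403 peaks, although the median log2 fold change of their peaks was -0.15. Ligand and receptor genes both went both ways. Among ligand genes, Slit2 had 6 and 0, Sema3d 4 and 0, Sema3e 3 and 0 and Slit3 2 and 0. Efna5 had 4 and 1, Efnb2 3 and 2 and Ntng1 0 and 1. Among receptor genes there were 0 and 2 at Robo1, 0 and 4 at Robo2, 4 and 0 at Nrp1 and 2 and 0 at Epha2. These genes were picked after their counts were seen. Near Efnb2, an ephrin ligand gene, a peak had 3.91, 9.94 and 8.85 RPKM against 38.5, 40.8 and 39 (-2.32, SE 0.35), although the gene had 3 DARs toward mLN as well. The axon guidance count toward mLN was 27, 27 and 28 without mLN-SPF 3, pLN-SPF 1 and pLN-SPF 2. Toward pLN it was 37 without mLN-SPF 2 and 13, 12, 9 and 6 without mLN-SPF 1 and 3 and pLN-SPF 1 and 2. Neurotrophic factors and receptors had 19 and 13 among 144 peaks (22.2%). Ntrk2, the receptor of BDNF, had a coding exon peak with 7.34, 6 and 6.04 against 34.2, 28.6 and 26.4 (-2.04, SE 0.29), and a peak nearest, at 564 kb, to the NT-3 receptor gene Ntrk3 had 19.9, 21.8 and 31.3 against 5.40, 4.29 and 3.52 (2.22, SE 0.34). The balance of the neurotrophic list turned without mLN-SPF 2, to 17 and 19. Its count toward mLN was 11 and 12 without mLN-SPF 3 and pLN-SPF 2, and toward pLN 6, 8, 7 and 6 without mLN-SPF 1, mLN-SPF 3, pLN-SPF 1 and pLN-SPF 2.

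Of the 50 lists, 30 had more DARs toward mLN and 15 more toward pLN. Without mLN-SPF 2 these were 24 and 25, and without pLN-SPF 2 they were 36 and 9. Cadherin genes had more toward pLN, 27 against 18 of 254 peaks, with a median log2 fold change of -0.32. Their balance turned without mLN-SPF 1 (18 toward mLN and 13 toward pLN) and without pLN-SPF 2 (14 and 12). The count toward pLN was also 42, 17 and 17 without mLN-SPF 2, mLN-SPF 3 and pLN-SPF 1, and the count toward mLN was 11 without mLN-SPF 3. Cdh11, a cadherin of mesenchymal cells, went the other way at one peak, with 38, 28.4 and 60.2 RPKM against 5.82, 4.75 and 6.64 (2.62, SE 0.32). Matrix proteases and their inhibitors had 32 toward mLN and 15 toward pLN among 275 peaks. Adamts16, a secreted metalloprotease gene, had a peak with 23.7, 10.5 and 26.5 against 0.512, 2.09 and 0.585 (3.35, SE 0.49), while Timp3, a metalloprotease inhibitor gene, had 0 and 4. The protease count toward mLN was 15, 19 and 18 without mLN-SPF 3, pLN-SPF 1 and pLN-SPF 2, and toward pLN 26, 7, 6 and 7 without mLN-SPF 2, mLN-SPF 3, pLN-SPF 1 and pLN-SPF 2. Collagen genes had 7 and 7 among 214 peaks, or 6.54% in all against 10.8% of all peaks. The collagen counts moved to 3, 3, 4 and 13 toward mLN without mLN-SPF 3 and pLN-SPF 1, 2 and 3, and to 16, 4, 2 and 1 toward pLN without mLN-SPF 2 and 3 and pLN-SPF 1 and 2. Matricellular and elastic fiber genes had 26 and 11 among 227. Near Postn, which encodes periostin, a peak had 53, 47.7 and 69.8 against 13.3, 10.5 and 12.5 (2.13, SE 0.23). The matricellular count toward mLN was 13 and 16 without mLN-SPF 3 and pLN-SPF 2, and toward pLN 19, 7, 7 and 4 without mLN-SPF 2, mLN-SPF 3, pLN-SPF 1 and pLN-SPF 2.

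**Figure D4:**
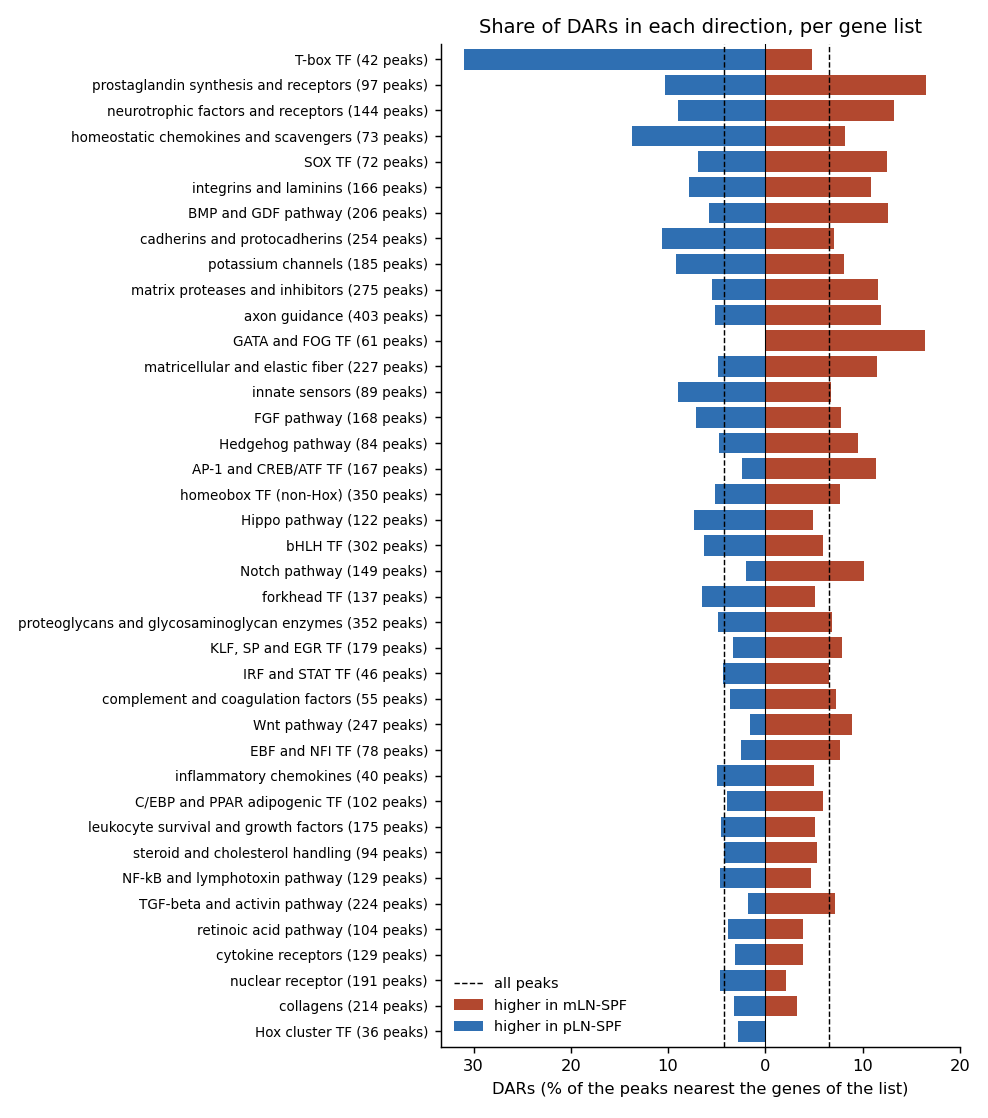
Share (%) of the peaks nearest the genes of each list that were DARs, to the right in red for those more open in mLN-SPF and to the left in blue for pLN-SPF, with dashed lines at the shares of all peaks, 6.49% and 4.27%. T-box genes reached 31.0% toward pLN, and GATA genes had 16.4% toward mLN and none toward pLN. None of the GATA DARs lay within 50 kb of a start site, and the dashed lines are not matched for distance.

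Signaling and immune genes are given by role. In the Notch pathway, 15 DARs were toward mLN and 3 toward pLN among 149 peaks (9 toward mLN without pLN-SPF 2, and 11 and 5 toward pLN without mLN-SPF 2 and pLN-SPF 3). The ligand gene Jag1 had a peak with 25.3, 22 and 37.5 RPKM against 4.97, 2.77 and 9.93 (2.19, SE 0.41), the receptor gene Notch2 46.7, 31.6 and 31.1 against 13.6, 5.73 and 6.41 (2.03, SE 0.32) and the nuclear effector Rbpj 32.3, 27.1 and 45.5 against 7.04, 6.36 and 9.04 (2.06, SE 0.37). In each the nodes did not overlap. Homeostatic chemokines and their scavenger receptors had 6 DARs toward mLN and 10 toward pLN among 73 peaks. Those toward mLN lay at the scavengers Ackr1, Ackr3 and Ackr4, and those toward pLN at Cxcl12, Cxcl13, Cx3cl1 and Cxcr5. Ackr4, which removes CCR7 ligands, had a promoter peak with 26.1, 21.3 and 36.3 against 7.38, 4.38 and 11.8 RPKM (1.76, SE 0.37). Ackr4 is also one of the lymphatic endothelial markers, whose levels are given below. A peak near Cxcl12, a chemokine of reticular cells, had 15.9, 11.8 and 9.57 against 35.1, 28.3 and 62.1 (-1.62, SE 0.34). The chemokine count toward mLN was 3 without mLN-SPF 1 or pLN-SPF 2, and toward pLN it was 17 without mLN-SPF 2 and 5 without pLN-SPF 1 or 2. Innate sensor genes had 6 and 8 among 89 peaks, with 5 of the 6 at Tlr5, the flagellin receptor gene. Its lead peak had 35.2, 35.2 and 60.3 RPKM against 10.7, 13.4 and 6.49 (2.00, SE 0.33). The peptidoglycan sensor gene Nod2 had an intronic peak with 9.91, 20.5 and 8.98 against 37.4, 56.5 and 46.8 (-1.83, SE 0.32), and its adaptor kinase Ripk2 a peak with 13.5, 17 and 13.6 against 48.8, 48.6 and 30.2 (-1.45, SE 0.24). The sensor counts were 3 to 7 and 4 to 9 without 1 library, lowest toward mLN without mLN-SPF 1 or pLN-SPF 1 and toward pLN without mLN-SPF 1 or 3 or pLN-SPF 1 or 2.

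Of the morphogen pathways only the Hippo genes had more DARs toward pLN, read against 2754 DARs toward mLN and 1813 toward pLN in all. Hippo pathway genes had 6 toward mLN and 9 toward pLN among 122 peaks, retinoic acid genes 4 and 4 among 104, FGF genes 13 and 12 among 168 and Hedgehog genes 8 and 4 among 84. The Hippo balance turned without mLN-SPF 1 (7 and 5), mLN-SPF 3 (5 and 3), pLN-SPF 1 (6 and 2) or pLN-SPF 2 (4 and 2), and the FGF balance without mLN-SPF 2 (16 and 19). FGF counts were 8 and 7, 9 and 4, 7 and 3, and 20 and 11 without mLN-SPF 3 and pLN-SPF 1, 2 and 3. Retinoic acid counts were 3 and 9, 2 and 1, and 1 and 2 without mLN-SPF 2, mLN-SPF 3 and pLN-SPF 2, and Hedgehog counts 11 and 8, 5 and 2, 7 and 2, and 5 and 1 without mLN-SPF 2 and 3 and pLN-SPF 1 and 2. BMP and GDF genes had 26 and 12 among 206 peaks. The ligand gene Bmp6 had 5 and 0, with a peak at 37.7, 35.1 and 42 RPKM against 8.12, 7.23 and 8.89 (2.11, SE 0.27), while the antagonist gene Grem1 had 0 and 1. In Bmp6 the libraries of each node lay close together and did not overlap. The BMP count toward mLN was 17, 16 and 15 without mLN-SPF 3, pLN-SPF 1 and pLN-SPF 2, and toward pLN 4, 3, 3 and 7 without mLN-SPF 1, pLN-SPF 1, pLN-SPF 2 and pLN-SPF 3. Wnt pathway genes had 22 and 4 among 247 peaks, or 10.5% in all, near the 10.8% of all peaks. A peak near the Wnt antagonist gene Dkk2 had 33.1, 26.7 and 35.1 against 5.94, 4.85 and 8.14 (2.17, SE 0.34), although the gene also had 1 DAR toward pLN. The Wnt count toward mLN was 10, 12, 10 and 9 without mLN-SPF 1, mLN-SPF 3, pLN-SPF 1 and pLN-SPF 2, and toward pLN 16 without mLN-SPF 2. TGF-beta and activin genes had 16 and 4 among 224. A coding exon peak of the receptor gene Tgfbr2 had 55.9, 24.4 and 42.8 against 8.96, 4.11 and 10.8 (2.24, SE 0.37). The TGF-beta count toward mLN was 10, 10 and 8 without mLN-SPF 3, pLN-SPF 1 and pLN-SPF 2, and toward pLN 10, 2, 1 and 1 without mLN-SPF 2, mLN-SPF 3, pLN-SPF 1 and pLN-SPF 2.

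Prostaglandin synthesis and receptor genes had 16 DARs toward mLN and 10 toward pLN among 97 peaks, 26.8% in all. At the synthesis genes, an intronic peak of Pla2g4a, the phospholipase that frees arachidonic acid, had 41.9, 60.6 and 65.5 RPKM against 24.9, 20.6 and 20.6 (1.29, SE 0.20), and one of the cyclooxygenase gene Ptgs1 39.4, 30.8 and 43 against 11.1, 9.98 and 14.4 (1.60, SE 0.25). Within mLN-SPF, replicate 1 was the lowest at Pla2g4a and replicate 2 at Ptgs1, and the nodes did not overlap at either. Of the prostaglandin E2 receptor genes, Ptger4 had 4 and 0, Ptger2 0 and 1 and Ptger3 1 and 2. An intronic peak of the transporter gene Abcc4 had 21.1, 28.6 and 19.5 against 56.9, 52.2 and 48.1 (-1.17, SE 0.19). The prostaglandin count toward mLN was 7, 9 and 9 without mLN-SPF 3, pLN-SPF 1 and pLN-SPF 2. Its balance turned without mLN-SPF 2, to 13 and 17. Toward pLN it was 5, 17, 6, 6, 3 and 4 without mLN-SPF 1, 2 and 3 and pLN-SPF 1, 2 and 3. Leukocyte survival and growth factor genes had 9 and 8 among 175 peaks. Near Il33, an alarmin gene of stromal cells, a peak had 73.5, 43 and 60.7 against 20.1, 11.8 and 18.2 (1.76, SE 0.29). Their count toward pLN was 3, 19, 2, 0 and 0 without mLN-SPF 1, 2 and 3 and pLN-SPF 1 and 2, and the balance turned without mLN-SPF 2 (10 and 19). Nuclear receptor genes had 4 toward mLN and 9 toward pLN among 191. Near Rarb, a retinoic acid receptor gene, a peak had 8.32, 6.75 and 6.82 against 25.8, 32.9 and 25 (-1.79, SE 0.28). The nuclear receptor count toward mLN was 1, 2 and 2 without mLN-SPF 3, pLN-SPF 1 and pLN-SPF 2, and toward pLN 18, 5 and 4 without mLN-SPF 2, pLN-SPF 1 and pLN-SPF 2.

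DARs also lay near markers of stromal subsets and of other cells. Of 67 peaks nearest fibroblastic reticular cell markers, none was a DAR toward mLN and 9 were toward pLN. Of these, 5 were nearest Cxcl13 and the others nearest Enpp2, Grem1, Il7 and Vcam1. Only Cxcl13 had such a DAR within 50 kb of a start site. The count toward pLN was 17 without mLN-SPF 2, 5 without mLN-SPF 1, and 2 and 3 without pLN-SPF 1 and 2. The summed promoter level of these markers was 319 to 351 RPKM in mLN-SPF and 372 to 418 in pLN-SPF. Ccl19, Ccl21a and Madcam1, which define T zone and marginal reticular cells, had no peak, and Ccl21a has near-identical copies, while reads that mapped to several places had been dropped. Of 63 peaks near markers of CD34+ stroma, found around large vessels and in the capsule, 14 were DARs toward mLN and 1 toward pLN, with sums of 444 to 497 and 322 to 411 RPKM. Toward mLN this was 8, 9, 9 and 8 without mLN-SPF 1 and 3 and pLN-SPF 1 and 2, and toward pLN 2 without mLN-SPF 2. The promoter of Mfap5, a microfibril gene, had 49.7, 42.2 and 68.6 against 19.7, 19.4 and 15.2 RPKM (1.49, SE 0.23).

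Mesothelial markers had 9 DARs toward mLN among 19 peaks, 7 at Wt1 and 2 at Upk3b, and sums of 76.6 to 102 RPKM in mLN-SPF and 32.9 to 59.7 in pLN-SPF over 3 promoter peaks. Msln, Krt18 and Lrrn4, which define mesothelium, had no peak. The count was 5 without mLN-SPF 3 or pLN-SPF 1 and 4 without pLN-SPF 2. Blood endothelial markers had 3 DARs toward mLN and 8 toward pLN among 43 peaks, 6 of the 8 at the distal Cdh5 peaks, with sums of 102 to 140 and 87.9 to 117 RPKM over 5 promoter peaks. The endothelial count toward mLN was 1 without mLN-SPF 1, pLN-SPF 1 or pLN-SPF 2 and 5 without pLN-SPF 3, and toward pLN 5, 4, 5 and 3 without mLN-SPF 1, mLN-SPF 3, pLN-SPF 1 and pLN-SPF 2. Lymphatic endothelial markers had 2 of 10 peaks (20%) as DARs toward mLN, both at Ackr4, with sums of 62.5 to 115 RPKM in mLN-SPF and 35.9 to 68.5 in pLN-SPF over 3 promoter peaks. The promoter of Prox1, which defines lymphatic endothelium, had 19.5, 22.3 and 36.7 against 24.9, 24.2 and 18.5 RPKM (0.17, SE 0.26), and the nodes overlapped. Hematopoietic markers had 2 of 22 peaks as DARs toward pLN, both nearest Ptprc and more than 50 kb from a start site. Of these 12 genes 2 had a promoter peak, with sums of 29.6 to 45.7 and 37.1 to 56.5 RPKM. Pericyte and smooth muscle markers had 1 and 2 of 40, with sums of 220 to 290 and 327 to 375 RPKM. The pericyte count toward pLN was 6 without mLN-SPF 2 and 1 without mLN-SPF 1 or any pLN-SPF library, and that toward mLN 0 without mLN-SPF 1, mLN-SPF 2, pLN-SPF 1 or pLN-SPF 2. The hematopoietic count toward pLN was 1 without mLN-SPF 1 or pLN-SPF 3. Of 23 peaks near housekeeping genes, 1 was a DAR, near Ywhaz, and it was called only with mLN-SPF 1, mLN-SPF 3, pLN-SPF 1 and pLN-SPF 2 all in the fit. The part that other cells may have in the results was not tested.

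Short motifs were counted in the central 200 bp of peaks outside promoters, a window that reaches past the narrowest peaks. Only the shares of all peaks, over the 42342 peaks with sequence, also took in promoter peaks. An AP-1 site (TGACTCA) was in 22.3% of 2629 DARs toward mLN, 12.7% of 1751 DARs toward pLN, 13.8% of peaks that were no DAR and 10.9% of all peaks. The nuclear receptor site (AGGTCA) was in 19.6%, 13.3%, 13.6% and 12% of these. Toward pLN the order was reversed for the NF-kB site (GGGANNNCC), in 10.1% of DARs toward mLN, 18.1% of those toward pLN, 13.6% of unchanged and 15.4% of all peaks. Likewise the homeodomain core (TAATTA) was in 3.27%, 6.40%, 4.13% and 3.17%, the HOX-PBX site (TGATTNAT) in 4.41%, 7.31%, 4.30% and 3.34%, and the interferon regulatory factor site (GAAANNGAA) in 5.17%, 8.51%, 7.37% and 6.18%. Of the other motifs, the MEIS site (TGACAG) was in 14.9% of DARs toward mLN and 18% of those toward pLN, the E-box CATCTG in 18.9% and 22%, the KLF/SP site (GGGCGGG) in 2.97% and 1.83%, and the CRE site of CREB and ATF factors (TGACGTCA) in 0.875% and 0.343%, or 23 and 6 peaks. These motifs were picked after their shares were seen. The core and the HOX-PBX site can share bases. Both strands were searched. The site of T-box factors (AGGTGTGA) was in 0.342% and 0.343%, and that of NKX2 factors (CACTTAA) in 2.62% and 2.40%. With a window of 400 bp the AP-1 shares were 32.2% toward mLN and 19.8% toward pLN. DARs toward mLN were narrower than those toward pLN, as given above, and the part of width and base composition in these shares was not tested.

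**Figure D5:**
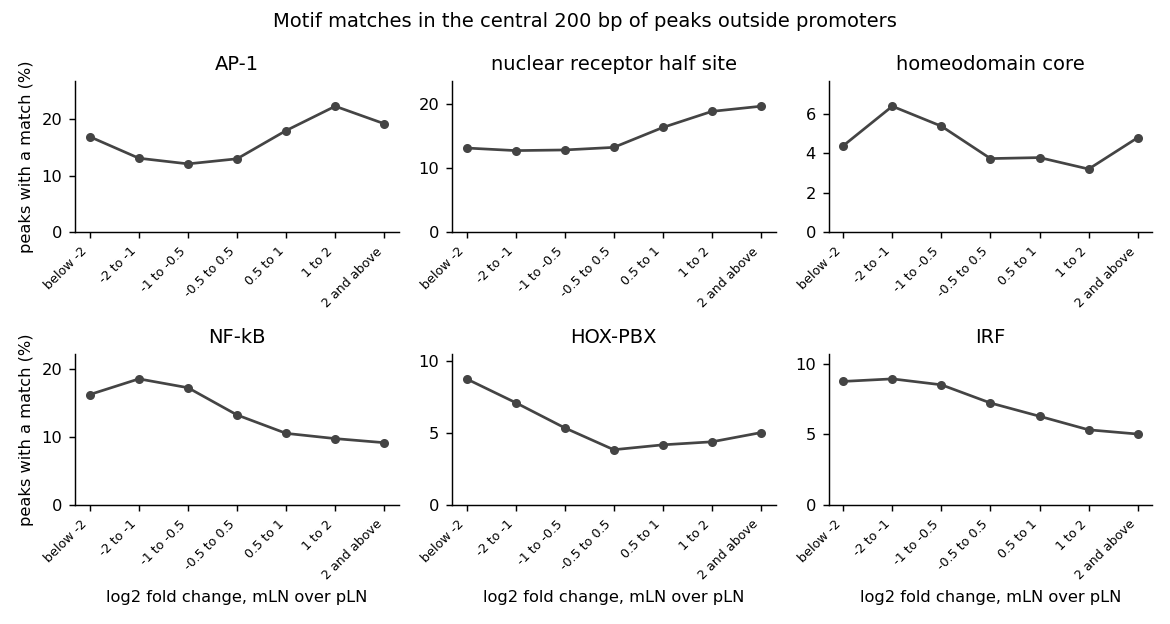
Share (%) of peaks outside promoters with a motif match in the central 200 bp, by log2 fold change of the peak (mLN-SPF over pLN-SPF), for 6 motifs. AP-1 matches went from 13% of the least changed peaks to 22.3% of peaks with a log2 fold change of 1 to 2 and 19.2% at 2 and above, and were in 16.9% of the 160 peaks below -2. NF-kB matches were in 16.2% of peaks below -2, 18.5% at -2 to -1, 13.2% of the least changed and 9.13% at 2 and above.

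The same peaks were set against the GF libraries, in which mLN-GF has 3 libraries and pLN-GF 2. Of the DARs toward mLN-SPF, 2719 (98.7%) had the same sign in GF mice, with a median log2 fold change of 1.78, and of those toward pLN-SPF 1801 (99.3%), with a median of -1.19. The GF libraries of the nodes did not overlap in 94.0% and 93.3% of them. Shares over all peaks are not given here for GF mice, so these values have no background to be read against. SPF and GF libraries of the same node were not compared directly. A test of the interaction asked whether the difference between the nodes was itself different in SPF and GF mice. This interaction test called no peak at a limma adjusted p under 0.05 (0 of 42424, or 0%). At an unadjusted limma p under 0.05 there were 1485 peaks (3.5%), and the lowest adjusted p was 0.887. The count at an unadjusted p under 0.05 was 1335 by voom on recovered reads, 2236 without mLN-SPF 1 and 2419 with a replicate block and a GC correction. The Nkx2-3 promoter had a log2 fold change of 3.71 in GF mice, Tbx15 -2.49 and En1 -3.07. An intronic peak of Pcdh15, a protocadherin gene of sensory hair cells, had -2.94 in SPF and -0.32 in GF mice (limma p of the difference 0.00486 unadjusted, and not called after adjustment). GF mice came from another facility, so that housing and colony cannot be told apart.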

How the data were processed

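ATAC-seq was measured in 12 samples, and 11 libraries were used. Reads were mapped by the authors to mm10 (GRCm38) using STAR 2.5.3a, with multi-mapping reads and duplicates (Picard) dropped. MACS2 gave broad peaks for each library, and peaks sharing a base were merged and blacklisted ones left out. A shift for Tn5 insertion is not given in the sources used here. The deposited table holds RPKM per peak and library, made by the authors from reads scaled with DESeq2 1.22. It also holds log2 fold changes and p-values (adjusted) that the authors made for 4 pairwise comparisons, which were not used, nor were its gene names. In 100% of entries 1 column, labelled as the second pLN-GF library, held the average of the 5 remaining pLN columns. It belongs to no sample and was left out. Of 42434 entries 10 repeated a peak. Peak widths were 98 to 3959 bp (median 537).

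The test was limma 3.58.1 (R 4.3.3) on log2(RPKM + 1), with 4 group means with a mean-variance trend and 7 residual degrees of freedom, two-sided, with Benjamini-Hochberg adjustment over all peaks. Fold changes are on that scale and understate changes of weak peaks. The SE had a median of 0.267, and the 95% interval a median reach to either side of 0.574. In each library used, 100% of RPKM values times width were whole multiples of 1 step (within 0.02 of a read), which gave the reads, and voom in limma was run on them as an alternative. No count test was the main result. Scripts were tested on simulated data.

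Start sites were those of protein-coding genes in GENCODE vM21, and 27.0% of peaks overlapped one. Promoter sequences were searched in RefSeq promoters of GRCm38.p6. Of all peaks, 42342 had sequence in which 29 motifs were searched. The 50 gene lists, the motifs and the rule for named peaks were chosen with earlier results of these data known. In each direction the rule named the 12 largest DARs and the 10 largest promoter DARs, both only where the nodes did not overlap. It also named the 8 genes with the most DARs, up to 4 genes per list by adjusted p and every promoter peak of a marker gene. The 6 largest pairs of opposite neighbouring DARs and the 5 interaction peaks of lowest p were named as well. A promoter that the rule took is not reported here. Alternatives were other pseudocounts (0.25 and 5), a filter, SPF libraries only, a replicate block, a GC correction, median and quantile scaling, no trend, voom and leaving out each library. Same-numbered libraries of the nodes deviated together with correlations of 0.028, 0.271 and 0.229, so the numbers were not taken to pair the samples.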

Additional observations from a re-analysis of the deposited data

How the results depend on the processing

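None of the 305 named peaks that were DARs changed direction under the alternatives. The balance of a gene list between the nodes was less stable, and turned in 6 of 50 lists without mLN-SPF 2 and in 2 to 5 without each of the other libraries. Leaving out 1 library gave 2290 (without pLN-SPF 2) to 5939 DARs (without mLN-SPF 2), with 1556 to 3273 toward mLN and 723 to 2890 toward pLN. Without both mLN libraries numbered 2 there were 2876 DARs toward pLN, and without the shallowest SPF library of each node 968. Both of these alternatives were chosen after the data had been seen. All other settings kept the counts within 1.5 times, from 3499 DARs with a pseudocount of 5 to 5441 with voom. With SPF libraries only there were 3738 DARs, and 79.3% of the main calls were kept. The interaction test, of whether the node difference differed between housings, called 0 peaks under each alternative in which it could be fitted. It could not be fitted with SPF libraries only. With a replicate block the count was 5065, of which 4530 were among the 4567, although the numbers do not pair the samples by the labels. Each mLN library correlated best with its own number, but pLN-SPF 1 did so with mLN-SPF 2. Scaling moved the median of all peaks by under 0.03. Depth (37 to 136 reads in the median peak) limits the precision of changes near 2-fold.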

Other observations

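Opposite changes at neighbouring peaks were not limited to weak peaks. In Gm17409, a predicted gene, an intronic peak had 6.66, 12.6 and 3.02 RPKM in mLN-SPF and 79.7, 84.6 and 41.3 in pLN-SPF (-3.15, SE 0.39), and the promoter 32.7 kb away 20.8, 22.6 and 26.4 against 5.10, 2.84 and 8.74 (1.98, SE 0.39). Near Sorcs3, a sortilin-related receptor gene, changes of 3.68 and -1.64 lay 140 kb apart, the latter lost without mLN-SPF 1 or 3 or pLN-SPF 1 or 2.

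Potassium channel genes had 15 DARs toward mLN and 17 toward pLN among 185 peaks. Near Kcnj16, an inward rectifier gene, a peak had 41.3, 36.7 and 48.6 against 11.4, 11.4 and 11.3 RPKM (1.80, SE 0.23), and near Kcnj8, a channel of pericytes, 13.8, 20.2 and 7.75 against 44.6, 49.1 and 45.4 (-1.75, SE 0.29). The channel counts were 18 and 23 without mLN-SPF 2 and 8 and 9 without mLN-SPF 3, and the balance turned without mLN-SPF 1 (11 and 7) or pLN-SPF 1 (8 and 4), 2 (7 and 6) or 3 (20 and 12). By chromosome, the share of peaks more open in mLN-SPF ran from 3.66% on X to 9.19% on 13, and toward pLN-SPF from 2.45% on 11 to 6.09% on 3, leaving out the 13 peaks on Y. The chromosome shares were not tested.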
